A study of Mus musculus with 12 samples.

Results

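The genes described here release ATP from cells, break it down outside them, or bind the adenosine that results. They were taken by name from the arrays' own annotation, which holds 8 of the 9 names looked for: Panx1, Entpd1, Entpd2, Entpd3, Nt5e, Adora1, Adora2a and Adora2b, out of 18397 genes tested. These 8 have 14 probes, all well above background on all 12 arrays, so none was lost to the filter on dim probes. The ninth name, Slc17a9, is on no probe under that spelling and was read separately through probes with older names.

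Stretched bladder epithelium (urothelium) releases ATP, which acts on P2 receptors of nerves, muscle and the urothelium itself. PANX1 forms a channel through which ATP can leave the cell, and SLC17A9 loads ATP into vesicles. Enzymes on the cell surface then shorten ATP: the ENTPD enzymes remove phosphates to give ADP and AMP, and NT5E turns AMP into adenosine. Adenosine acts on receptors that lower cyclic AMP (ADORA1) or raise it (ADORA2A and ADORA2B).

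Total RNA of whole urinary bladder was hybridised to 1-colour (Cy3) arrays, 2 for each of circadian times (CT) 0, 4, 8, 12, 16 and 20 h. All mice were 10-week-old C57BL/6 females, kept for 2 weeks in days with 12 h light and 12 h dark and killed afterwards in constant darkness. CT0, CT4 and CT8 fall in the subjective day, when mice rest, CT12 at its end, and CT16 and CT20 in the subjective night. The labels state neither the number of days in darkness nor whether each array held 1 mouse, so p-values measure the spread between arrays. Slide 1 held CT0 and CT4, slide 2 CT8 and CT12, and slide 3 CT16 and CT20. Times 12 h apart therefore lie on different slides, where time and slide cannot be told apart.

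The share of spots that stood well above background ranged from 64.2% to 70.2% over the arrays, and the 75th percentile of signal from 844 to 984 intensity units. Of 13 core clock genes, kept as a check of the time labels, 11 passed the 24 h test. All measured markers of urothelium (9 of 9) and of smooth muscle (8 of 8) were well above background on all 12 arrays, and the B cell marker Cd79a was not on any. A level below is the log2 processed signal of a probe minus the array's 75th percentile, so 0 equals that percentile. Levels of different probes are not set against each other.

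The upstream sequences of 3 genes are shown, because Panx1 and Entpd3 had the highest correlation of any pair among the 8, and Nt5e had its highest mean at CT16 on both of its probes. Each is the 250 bases before the gene's start on the strand named, from RefSeq on GRCm38.p6. Capitals mark an E-box (CACGTG, the element that the clock activators BMAL1 and CLOCK bind) or a GC box (GGGCGG, or CCGCCC on the other strand).
Panx1, chr9:15045479-15045728, minus strand: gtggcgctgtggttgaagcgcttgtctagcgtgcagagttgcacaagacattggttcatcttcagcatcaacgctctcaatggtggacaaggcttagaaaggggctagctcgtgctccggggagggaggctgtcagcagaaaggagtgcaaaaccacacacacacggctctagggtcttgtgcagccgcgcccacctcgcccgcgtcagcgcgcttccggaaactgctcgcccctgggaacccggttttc
Entpd3, chr9:120539568-120539817, plus strand: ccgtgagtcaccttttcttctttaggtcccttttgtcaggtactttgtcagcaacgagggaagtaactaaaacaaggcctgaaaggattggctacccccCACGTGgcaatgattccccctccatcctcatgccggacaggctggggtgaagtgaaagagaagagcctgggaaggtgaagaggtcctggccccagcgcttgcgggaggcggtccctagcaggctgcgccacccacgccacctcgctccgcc
Nt5e, chr9:88327359-88327608, plus strand: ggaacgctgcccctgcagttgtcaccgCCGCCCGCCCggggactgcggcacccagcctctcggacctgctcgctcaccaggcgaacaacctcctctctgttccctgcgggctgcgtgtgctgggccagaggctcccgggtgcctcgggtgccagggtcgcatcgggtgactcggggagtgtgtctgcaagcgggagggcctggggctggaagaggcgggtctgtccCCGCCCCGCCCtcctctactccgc
The Entpd3 sequence holds 1 E-box, beginning 151 bases before the start, and the Panx1 sequence holds none of the 4 motifs searched. The Nt5e sequence holds 4 GC boxes and is 72.0% G and C. Sequences were matched for 7 of the 9 genes, 9 in all: the E-box is in 1 of these 9 and in 6.02% of the 32851 upstream sequences of the same length. The GC box is in 4 of the 9 and in 32.7% of all. The D-box TTATGTAA and the Rev-erb and ROR element TAGGTCA are in none of the 9, and in 0.819% and 2.23% of all. Both strands were searched, the 4 GC boxes of Nt5e form 2 overlapping pairs, and a match describes these letters and nothing more.

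Across the 12 arrays no gene of the 8 passed a test over the 6 times after adjustment over all 18397 genes (limma, Benjamini-Hochberg, threshold 0.05). For the 24 h wave 0 of 8 passed, with 0.620% of all genes called, and 2 of 8 (Panx1 and Entpd3) had an unadjusted p under 0.05, with 15.7% of all genes. For any difference between times 0 of 8 passed (0.0924% of all genes), and 2 of 8 (Panx1 and Nt5e) had an unadjusted p under 0.05 (19.0% of all genes). The median fitted peak over trough was 1.18-fold for the 8 genes and 1.19-fold for all genes. The median SD between the 2 arrays of a time was 0.17 for the 8 and 0.16 for all genes, on the log2 scale.

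**Figure D1:**
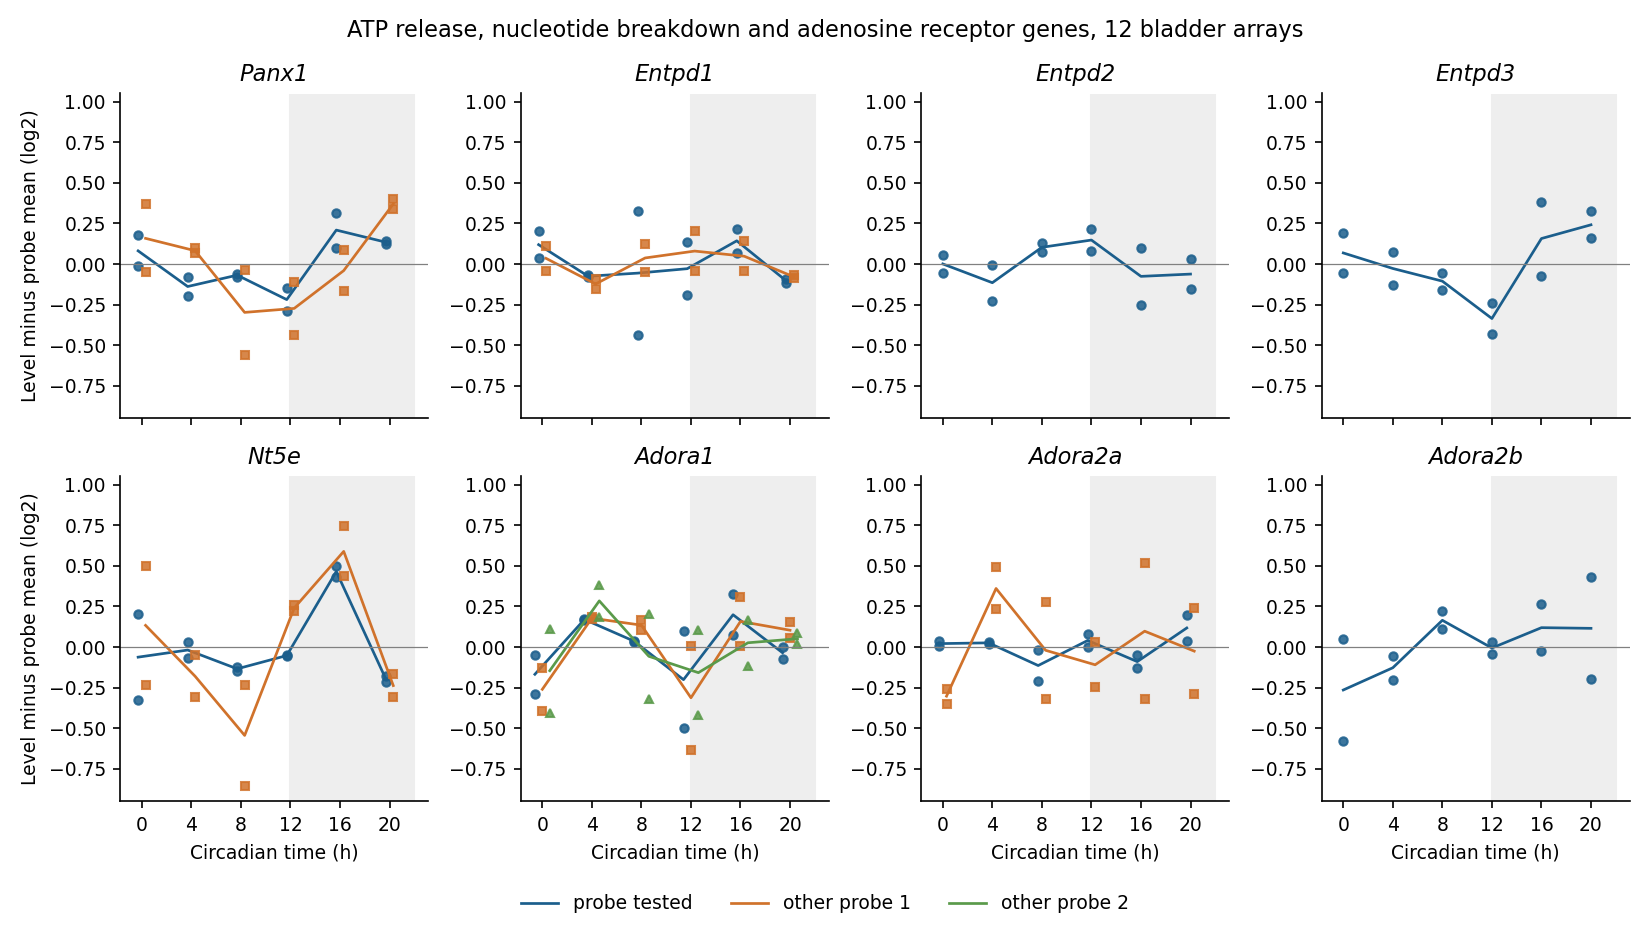
Level of each probe minus its own mean over 12 arrays (log2, vertical axis) against circadian time (h). Points are arrays, lines join the means of the 2 arrays of a time, and colours and symbols tell the probes of a gene apart. Grey marks most of the subjective night, from CT12 on. Nt5e is highest at CT16 on both probes, Entpd3 is lowest at CT12, and the points of Entpd1, Entpd2 and the 3 adenosine receptors lie close to or on both sides of their means at most times.

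Panx1, the pannexin channel gene, had its highest mean levels at CT16 and CT20 and its lowest at CT12. Its probe (chr9:14841518-14841577, minus strand, mm7) had levels of 3.64 and 3.83 at CT0, 3.45 and 3.57 at CT4, 3.57 and 3.59 at CT8, 3.36 and 3.50 at CT12, 3.75 and 3.97 at CT16, and 3.77 and 3.79 at CT20. The 6 arrays of CT16, CT20 and CT0 were all above the 6 of CT4, CT8 and CT12. In order of the means, CT16, CT20 and CT0 overlapped as neighbours, as did CT4 and CT12, while CT0 and CT8, and CT8 and CT4, did not.

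The fitted 24 h wave of Panx1 was 1.28-fold from trough to peak (range 1.18 to 1.38 for 1 SE of the amplitude), with its peak at CT19.7 ± 1.2 h (SE; unadjusted p = 0.0264, limma adjusted p = 0.255). Panx1 had levels of 3.75 and 3.97 at CT16, against 3.45 and 3.57 at CT4, a difference of 0.35 ± 0.11 (SE, log2, 2 arrays each; adjusted p = 0.132). At CT12 the levels were 3.36 and 3.50, against 3.64 and 3.83 at CT0, a difference of -0.30 ± 0.11 (adjusted p = 0.423). A second, dimmer Panx1 probe (chr9:14843627-14843686, minus strand, 35.4 to 76.3 intensity units) had a 1.55-fold wave at CT22.0 ± 0.97 h (unadjusted p = 0.00764, adjusted p = 0.148). This probe gave a difference of -0.12 ± 0.21 for CT16 minus CT4, the opposite sign, and of -0.43 ± 0.21 for CT12 minus CT0. The 2 probes correlated at r = 0.46 over 12 arrays (Spearman rho = 0.42, permutation p = 0.134), and r was 0.32 without the 2 arrays farthest from the median.

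Slc17a9, the vesicular nucleotide transporter gene, was read through a probe named 1700019H03Rik in the files (chr2:181243047-181243108, plus strand, mm7), which RefSeq lists as a synonym. It was well above background on all 12 arrays. Its levels were -2.29 and -1.29 at CT0, -1.89 and -2.03 at CT4, -2.16 and -1.70 at CT8, -1.39 and -1.46 at CT12, -2.42 and -2.22 at CT16, and -1.76 and -1.91 at CT20. The highest mean was at CT12 and the lowest at CT16, and the 2 arrays of CT0 spanned nearly the whole range. The fitted wave was 1.13-fold (adjusted p = 0.920), and the test for any difference gave adjusted p = 0.427. A second Slc17a9 probe (named BC019537, chr2:181233173-181233232), the one matched to the gene by its RefSeq transcript, was well above background on 0 of 12 arrays and gives no level. The 2 probes thus differ on whether the gene is detected, and the levels above are those of the synonym-matched probe alone.

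Among Entpd1, Entpd2 and Entpd3, which encode ATP-degrading enzymes, Entpd3 had the widest fitted wave and the others had narrow ones. Entpd3 (chr9:120265973-120266032, plus strand, mm7) had levels of 2.95 and 3.19 at CT0, 2.88 and 3.08 at CT4, 2.85 and 2.95 at CT8, 2.57 and 2.76 at CT12, 2.93 and 3.39 at CT16, and 3.16 and 3.33 at CT20. Both CT12 arrays were below all 10 others, a pattern whose share over all genes was not counted. The neighbours CT20, CT16, CT0, CT4 and CT8 overlapped one after the other. The wave was 1.36-fold (range 1.23 to 1.51 for 1 SE), peaking at CT21.1 ± 1.3 h (unadjusted p = 0.0371, adjusted p = 0.288).

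Entpd3 averaged 2.67 ± 0.13 at CT12 and 3.07 ± 0.17 at CT0 (SD, 2 arrays each), a difference of -0.40 ± 0.17 (SE; unadjusted p = 0.0446, adjusted p = 0.460). It averaged 3.25 ± 0.12 at CT20 and 2.90 ± 0.07 at CT8, a difference of 0.35 ± 0.17 (unadjusted p = 0.0750, adjusted p = 0.458). Within slide 2 the difference CT12 minus CT8 was -0.23 ± 0.17 (adjusted p = 0.593). Within slide 3 CT20 minus CT16 was 0.08 ± 0.17 (adjusted p = 0.858). Neither step passed the test, and the arrays overlapped at CT20 and CT16 but not at CT12 and CT8.

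Entpd2, an enzyme that favours ATP over ADP (chr2:25408528-25408587, plus strand, mm7), ranged over the arrays between 3.53 and 4.00. Its 2 highest means were at CT12 (3.86 and 4.00) and CT8 (3.86 and 3.91), and its wave was 1.13-fold at CT10.4 ± 2.5 h (adjusted p = 0.622). Entpd1, which degrades ATP and ADP (chr19:40633542-40633601, plus strand, mm7), ranged between 0.38 and 1.14, and both extremes were the 2 arrays of CT8. Its wave was 1.07-fold (adjusted p = 0.930). A second Entpd1 probe (chr19:40634549-40634608) ranged between -1.06 and -0.70 with a 1.09-fold wave (adjusted p = 0.702), and the 2 probes correlated at r = 0.69 (rho = 0.67, permutation p = 0.0119, adjusted over 7 same-gene pairs p = 0.0166).

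Nt5e, the gene of the enzyme that makes adenosine from AMP, had its highest mean level at CT16. Its probe (chr9:88472705-88472764, plus strand, mm7) had levels of 1.75 and 1.22 at CT0, 1.58 and 1.48 at CT4, 1.40 and 1.42 at CT8, 1.50 and 1.49 at CT12, 2.04 and 1.98 at CT16, and 1.33 and 1.37 at CT20. Both CT16 arrays were above all 10 others, and the next highest was the first CT0 array. The share of all genes with both arrays of a time above or below all others was not counted. The 2 arrays of CT0 differed by more than those of any other time.

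Nt5e averaged 2.01 ± 0.05 at CT16 and 1.53 ± 0.07 at CT4 (SD, 2 arrays each), a difference of 0.48 ± 0.15 (SE), or 1.40-fold (unadjusted p = 0.0139, adjusted p = 0.138). Within slide 3, it averaged 1.35 ± 0.03 at CT20 and 2.01 ± 0.05 at CT16, a difference of -0.66 ± 0.15, or 0.632-fold (unadjusted p = 0.00272, adjusted p = 0.179). This contrast, added after the values had been seen, involves no change of slide. The second Nt5e probe (chr9:88470130-88471096, 21.5 to 67.4 intensity units) also had its highest mean at CT16, with levels of -3.92 and -3.61, and the first CT0 array lay between these at -3.85. On it, CT16 minus CT4 was 0.77 ± 0.27 (adjusted p = 0.160) and CT20 minus CT16 was -0.83 ± 0.27 (adjusted p = 0.263). The 2 probes correlated at r = 0.77 (rho = 0.78, permutation p = 0.00234, adjusted p = 0.00805), and at r = 0.62 without the 2 arrays farthest from the median.

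A 24 h wave fitted to Nt5e was 1.24-fold at CT15.5 ± 2.4 h (adjusted p = 0.605), and 1.95-fold with slide as a fixed block (unadjusted p = 0.0282, adjusted p = 0.318). In the test for any difference the adjusted p was 0.222. It was 0.0485 without the first CT0 array, a fit in which 0.745% of all genes were called in place of 0.0924%, and 0.497 and 0.457 without the first or the second CT16 array. Over all alternatives run it lay between 0.0485 and 0.497, and the fit without the first CT0 array was the 1 in which it passed, along with 137 genes called in all, against 17 with all arrays.

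**Figure D2:**
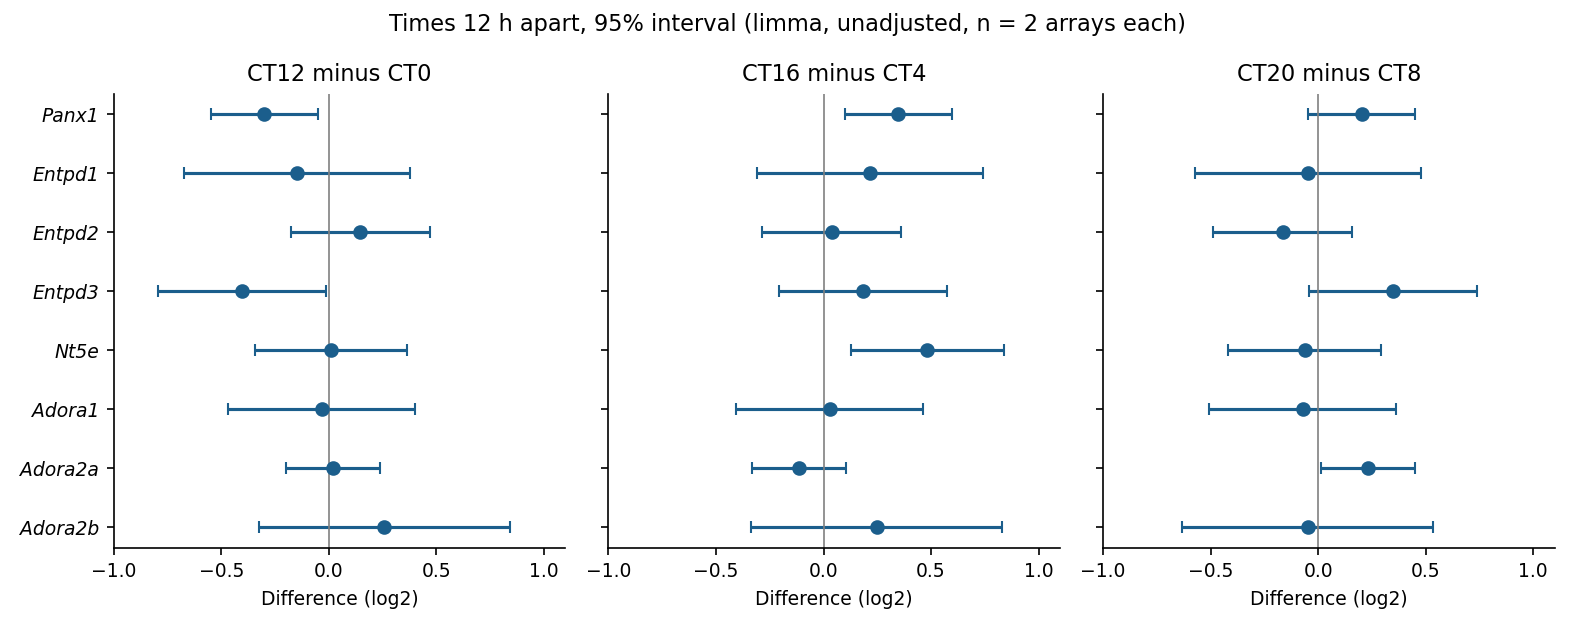
Difference in level between times 12 h apart (log2, horizontal axis) for the 8 genes, later time minus earlier time, in 3 panels. Points are limma estimates from 2 arrays each and bars their unadjusted 95% intervals: the interval excludes 0 for Panx1 and Entpd3 at CT12 minus CT0, for Panx1 and Nt5e at CT16 minus CT4 and for Adora2a at CT20 minus CT8, and none passed after adjustment.

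The adenosine receptor genes had fitted waves of 1.02-fold to 1.23-fold. Adora2a, the receptor that raises cyclic AMP at low adenosine (chr10:74988878-74988937, plus strand, mm7), had levels of -1.11 and -1.28 at CT20, against -1.33 and -1.52 at CT8. The difference was 0.23 ± 0.09 (SE; unadjusted p = 0.0410, adjusted p = 0.391). On a second Adora2a probe (chr10:74990257-74990317) it was -0.01 ± 0.31, and the 2 probes did not follow each other (r = -0.14, rho = -0.02, permutation p = 0.658). The fitted wave was 1.09-fold on the first probe (adjusted p = 0.688).

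Adora1, the receptor that lowers cyclic AMP, was measured by 3 probes, none with a clear wave. The probe tested (chr1:134091467-134091526, minus strand, mm7) ranged between 0.65, at the first CT12 array, and 1.48, at the second CT16 array. Its wave was 1.02-fold (adjusted p = 0.995), and those of the other 2 (chr1:134089189-134089248 and chr1:134092772-134092831) were 1.03-fold and 1.11-fold. The 3 pairs of probes correlated at r = 0.94, 0.76 and 0.75 over the 12 arrays (permutation p, adjusted, 0.00042, 0.00805 and 0.00805), with rho of 0.80, 0.72 and 0.76. Without the 2 arrays farthest from the median r was 0.72, 0.38 and 0.32, so the closeness of the last 2 pairs rested on those arrays. Adora2b, the receptor of lower affinity (chr11:62347152-62347211, plus strand, mm7), ranged between 1.04 at the second CT0 array and 2.05 at the first CT20 array. Its wave was 1.23-fold at CT13.5 ± 2.6 h (adjusted p = 0.648), and its arrays of one time differed by 0.28 (pooled SD, log2).

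**Figure D3:**
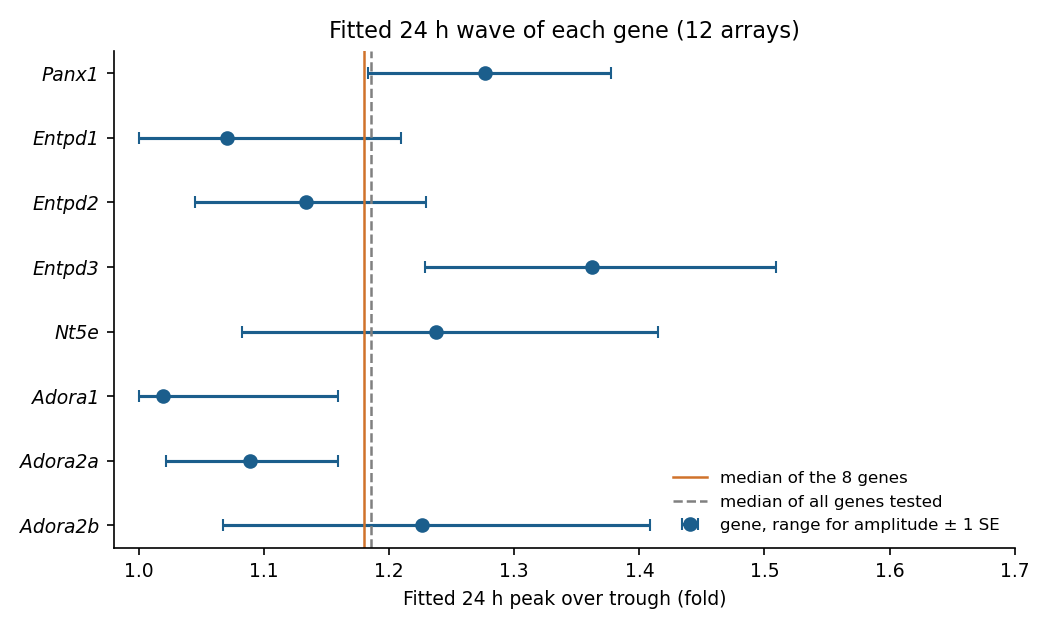
Fitted 24 h peak over trough (fold, horizontal axis) of the 8 genes. Points are limma harmonic fits to 12 arrays, bars the range for 1 SE of the amplitude (shown from 1 upward), the full line the median of the 8 genes (1.18) and the dashed line that of all genes tested (1.19). Entpd3 (1.36) and Panx1 (1.28) lie farthest to the right and Adora1 (1.02) farthest to the left.

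None of the 8 genes passed a contrast between times 12 h apart. For CT12 minus CT0 0 of 8 were called (0.196% of all genes), and the arrays of 3 of 8 did not overlap (40.5% of all genes). For CT16 minus CT4 0 of 8 were called (0.397%), and 5 of 8 did not overlap (55.9%): Panx1, Nt5e, Adora2b and Entpd1 were higher and Adora2a lower in value at CT16. For CT20 minus CT8 0 of 8 were called (0.0598%), and 6 of 8 did not overlap (45.1%), 3 in each direction. The median differences of the 8 were -0.01, 0.20 and -0.05, beside -0.04, 0.02 and 0.02 for all genes. Unadjusted p was under 0.05 for 2, 2 and 1 of the 8, with 10.7%, 20.9% and 12.2% of all genes.

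The steps within a slide, added after the slide layout was seen, called 0 of 8 as well. For CT4 minus CT0 and CT12 minus CT8 limma called no gene at all (0% of all genes; 9.27% and 12.9% at an unadjusted p under 0.05, and 0 of 8 here). For CT20 minus CT16 it called 0.00544% of all genes, and 1 of 8 (Nt5e) had an unadjusted p under 0.05 (14.1% of all genes). Arrays did not overlap in 3 of 8, 5 of 8 and 4 of 8 genes for these steps, beside 38.6%, 44.1% and 52.8% of all genes.

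Panx1 and Entpd3 varied together from array to array. Over 12 arrays their levels correlated at r = 0.90 (Spearman rho = 0.87, permutation p = 9e-05, adjusted over 28 pairs p = 0.00252), the 1 pair of 28 to pass. At each of the 6 times the second array had more Panx1 and more Entpd3 than the first, a one-sided difference that 4.33% of all genes showed. The second array was higher by 0.12 for Panx1 and 0.23 for Entpd3 on average (log2), and what the number stands for is not in the labels. Once the means of the times were removed r was 0.95, and 0.81 with the means of the replicate numbers removed as well. With those of the replicate numbers alone removed it was 0.89 (permutation within numbers, adjusted p = 0.00616, added after seeing the data). With slide means removed r was 0.80 (exact permutation within slides, adjusted p = 0.0668), and without the first CT12 and second CT16 arrays it was 0.79 (adjusted p = 0.0786). Other genes had higher values with each: Entpd3 ranked 75 among 18396 other genes by its correlation with Panx1, and Panx1 ranked 81 for Entpd3. Over all 28 pairs r had a median of 0.03 and a range from -0.70 to 0.90.

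Entpd2 ran the other way from Entpd3 across arrays, without passing. The pair had r = -0.70 (rho = -0.71, permutation p = 0.0118, adjusted p = 0.165), r = -0.64 with the means of the times removed and r = -0.50 with slide means removed. Without the first CT4 and second CT16 arrays r was -0.90 (adjusted p = 0.0146). Nt5e followed none of the other 7 genes, with r between -0.41 and 0.46.

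Markers of urothelium moved with Entpd3 across arrays, without passing. The list's score, the mean of its 9 measured markers in SD units, was -1.89 and -0.62 at CT12 and 0.74 and 1.23 at CT20, and within a range from -0.50 to 0.52 at the other times. The summed marker level was 8.95 to 9.20 at CT12 and 9.14 to 9.38 at CT0 (log2), and 9.51 to 9.53 at CT20 and 9.36 to 9.41 at CT8. Over 12 arrays the score correlated with Entpd3 at r = 0.77 (rho = 0.78, permutation p = 0.00279, adjusted over 80 pairs of gene and list p = 0.170). It did so at r = 0.56 with Panx1 (rho = 0.54, p = 0.0601, adjusted p = 0.437), and at -0.07 with Nt5e. Nt5e moved more closely with adipocyte markers (r = 0.55, rho = 0.80, Spearman permutation p = 0.00253, adjusted p = 0.111) and with nerve and Schwann cell markers (r = 0.56, rho = 0.78, p = 0.00418, adjusted p = 0.111), and neither pair passed. With slide means removed r was 0.66 and 0.72. All 6 nerve and Schwann cell markers and 4 of 5 adipocyte markers were well above background on all arrays. Summed levels of adipocyte markers were 8.21 to 8.22 at CT16, 7.67 to 8.69 at CT4 and 7.88 to 8.01 at CT20. Those of nerve and Schwann cell markers were 7.18 to 7.19, 7.10 to 7.18 and 7.19 to 7.36. The adipocyte score was 0.39 to 0.47 at CT16 and -0.87 to -0.34 at CT20. The nerve and Schwann cell score was 0.14 to 0.40 at CT16 and -0.87 to -0.27 at CT20, although the summed level was not lower. The part of these 2 lists in the Nt5e differences was not tested. Without the first CT12 and second CT20 arrays r with Entpd3 was 0.50, and with slide means removed it was 0.66. In whole bladder, fewer cells of a type and less RNA per cell cannot be told apart, and the part of the urothelial markers in the Entpd3 and Panx1 differences was not tested.

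**Figure D4:**
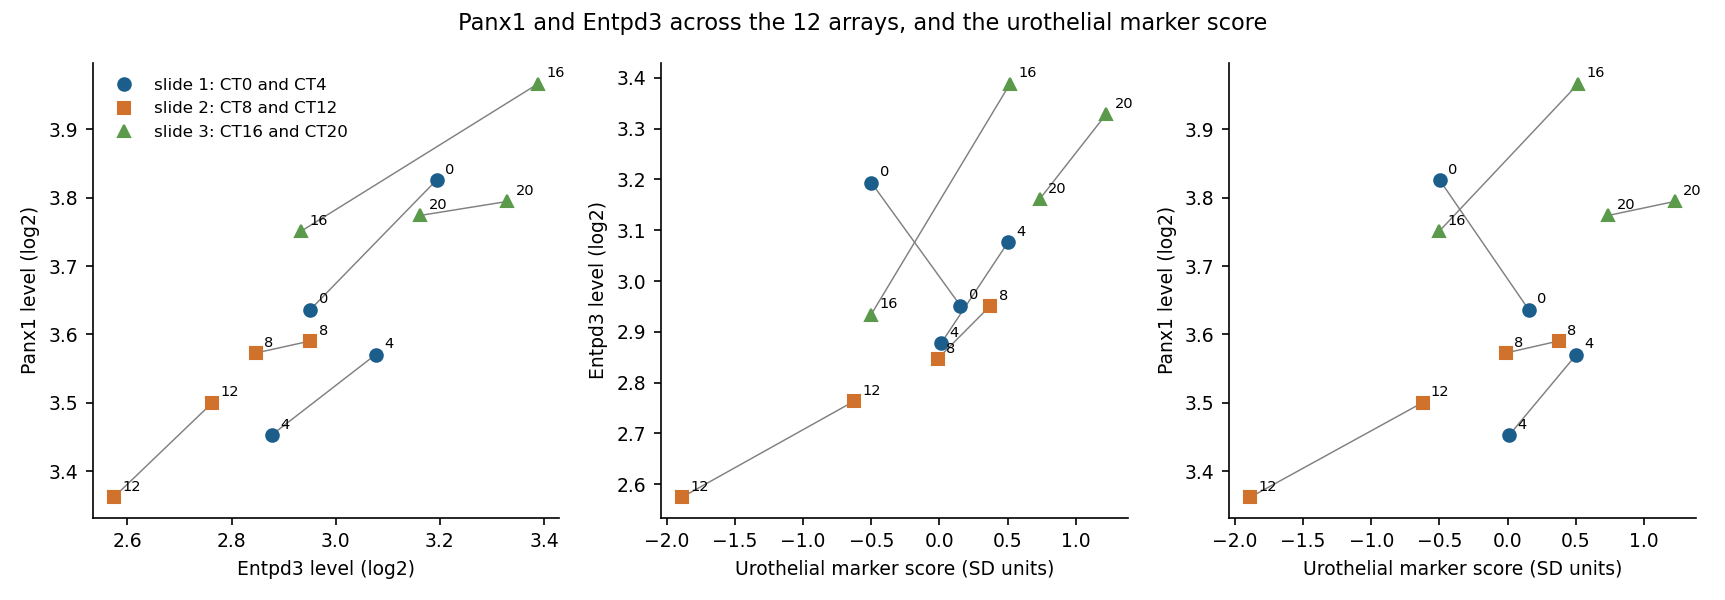
Left, Panx1 against Entpd3 level (log2); middle and right, Entpd3 and Panx1 level against the urothelial marker score (SD units). Each point is an array, numbered by circadian time, coloured by slide, and grey lines join the 2 arrays of a time. All 6 lines rise in the left panel (r = 0.90), and the first CT12 array is lowest on all axes.

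No pair of gene and marker list passed over the 80 tested, and 8 had an unadjusted p under 0.05. After Entpd3 with urothelium the smallest were Adora1 with fibroblast markers (r = -0.74, rho = -0.69, permutation p = 0.00535, adjusted p = 0.170) and Entpd1 with smooth muscle markers (r = 0.74, rho = 0.71, p = 0.00636, adjusted p = 0.170). Without the 2 farthest arrays these were -0.61 and 0.58. With slide means removed they were -0.74 and 0.74. Fibroblast markers had r = 0.66 with Entpd2 and r = -0.59 with Entpd3 (permutation, adjusted p = 0.389 and 0.421). Urothelial markers had r = -0.56 with Entpd2 (adjusted p = 0.437). The part of these lists in the opposite course of Entpd2 and Entpd3 was not tested. Liver-type transcripts varied widely between arrays, with a summed level of -0.05 to 5.16. The 3 arrays highest in them were the second arrays of CT12, CT20 and CT0. Without these, the waves of Panx1 and Entpd3 were 1.25-fold and 1.27-fold, in place of 1.28-fold and 1.36-fold. No CT16 or CT4 array was left out, so the Nt5e difference between those times could not change in this fit.

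By correlation over 12 arrays with 14609 named genes, given as a description, Panx1 was closest to Ei24 (r = 0.96), Tmed10 (0.96) and Ergic1 (0.96). Entpd3 was closest to Gsr (0.96), Mfsd13a (0.96) and Grb7 (0.95), and Nt5e to Rrm2b (0.89), Hoxd13 (0.89) and Hhex (0.86). Entpd1 was closest to Mrvi1 (0.93), Phactr2 (0.92) and Cnih4 (0.92), and Entpd2 to Unc5c (0.90), Fbxl7 (0.88) and Lum (0.88). The receptors' nearest were Aldh6a1, Nxpe3 and Zfp697 for Adora1 (0.88 to 0.90), Exoc2, Zbtb3 and Slc39a3 for Adora2a (0.85 to 0.87), and Apobec2, ccdc198 and Mterf2 for Adora2b (0.90 to 0.91). The probe read for Slc17a9 by synonym was closest to Olfr1226 (0.89), Smarca1 (0.88) and Kif11 (0.87). A correlation above 0.9 was found with 71 genes for Panx1, 73 for Entpd3, 7 for Entpd1 and 0 for Nt5e.

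Of the other genes of ATP release, nucleotide breakdown and adenosine handling, 21 of 29 listed were tested and 1 passed in any of the 5 tests. Slc29a3, an intracellular nucleoside transporter, had levels averaging -3.11 at CT16 and -2.12 at CT4, so that CT16 over CT4 was 0.502-fold (SE 0.14 on the log2 scale, limma adjusted p = 0.0346). The call is not firm: it was lost in 10 of the 12 fits that left out 1 array (adjusted p = 0.0473 to 0.189). Without the first or the second CT4 array adjusted p was 0.138 and 0.0757, and it was 0.0914 with slide as a random block and 0.0523 with the replicate block. The count for CT16 minus CT4 was thus 1 of 21, lower, with 0.397% of all genes called. Its fitted 24 h wave was 1.69-fold at CT4.4 ± 0.76 h (adjusted p = 0.0931). The smallest p-values of this list in the 24 h fit after it were those of Enpp3, an ATP-cleaving surface enzyme (1.61-fold, CT5.3, adjusted p = 0.154), and Enpp2, the lysophospholipase autotaxin (1.57-fold, CT11.5, adjusted p = 0.194). Unadjusted p was under 0.05 in the 24 h fit for 6 of the 21, with 15.7% of all genes. The list's median wave was 1.25-fold, beside 1.18-fold for the 8 genes and 1.19-fold for all genes.

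None of 12 tested P2 receptor genes, of 14 listed, passed any of the 5 tests (limma; 0 of 12 had an unadjusted p under 0.05 in the 24 h fit, with 15.7% of all genes, and 4 of 12 in the test for any difference, with 19.0%). P2ry14, a receptor for UDP-sugars, had a 1.80-fold fitted wave at CT3.0 (adjusted p = 0.326). P2rx6 had one of 1.76-fold at CT9.8 (adjusted p = 0.347), and P2rx2, a subunit of ATP-gated channels, one of 1.36-fold at CT18.4 (adjusted p = 0.463). The list's median wave was 1.15-fold.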

How the data were processed

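Scanner files of 12 arrays (Agilent mouse 4x44K design) hold spot intensity made by Agilent Feature Extraction 10.5.1.1, per the file headers. The authors' deposited value table holds log2 values of 27883 probes; its normalisation is not given in the sources used here, its columns follow the scanner values at r = 0.979 to 0.982 across probes, and its column medians are 8.71 to 8.73. It served as an alternative. The submitters' processing notes name R 2.8.1.

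Log2 processed signals were averaged per probe without outlier spots and scaled by each array's 75th percentile. Names came from RefSeq accession, symbol or synonym (GRCm38.p6 table, names only), and 8458 of 41174 probes kept the name in the files. Each gene was represented by its brightest probe well above background on at least 4 arrays. limma 3.58.1 in R 4.3.3 fitted 24 h cosine and sine terms (9 residual degrees of freedom) and a 1-way model (6), with Benjamini-Hochberg adjustment over 18397 genes. A separate fit of all probes past the same filter, adjusted over 27699 probes, gave the values of the genes' further probes. Intervals are 95%. Correlations used 100000 permutations or 13824 exact permutations within slides. The fits were tested on simulated data. Pathway members, lists and tests were chosen with earlier results of these data known. Named genes were all members, list genes past the threshold, the 3 of smallest p per list in the 24 h fit, and the 3 nearest genes of each member. Coordinates are mm7, from the files, with no annotation of that build used here; upstream sequences are on GRCm38.p6 and were not compared with them. The number of arrays limits the precision.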

Additional observations from a re-analysis of the deposited data

How the results depend on the processing

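The count of members past the threshold was 0 in the 24 h test and in all 6 contrasts under every alternative run: normexp background correction, quantile or median scaling, the authors' table, other probe filters and choices, slide as a random block, the replicate block and each array left out. For any difference between times it was 0 except without the first CT0 array (range 0 to 1 over the 12 fits), when Nt5e passed (adjusted p = 0.0485) and the share of all genes called was 0.745% in place of 0.0924%. In fits that leave 1 array at a time, that array is assumed to vary like the others. Slide as a fixed block cannot give the contrasts 12 h apart, and so was not run for them. It left the Panx1 wave at 1.12-fold (unadjusted p = 0.758) and the Entpd3 wave at 1.29-fold (0.444). With the mean of both Panx1 probes the CT16 minus CT4 difference was 0.11. Same-numbered arrays of different times had deviations correlated at -0.20 to 0.44, not above 0.1 for every pair, and the labels tie the numbers to no shared batch, so they were not taken as pairs, although Panx1 and Entpd3 were higher on the second array at all 6 times. With the replicate block 0 members passed in each test. Of 28 pairs of members 1 passed as reported, 1 with the means of the replicate numbers removed and 0 with slide means removed; without the 2 arrays farthest from the median 1 passed, Entpd2 with Entpd3 in place of Panx1 with Entpd3. With time means removed, only r was given. Adora2a and female reproductive tract markers, never past the threshold, had r = -0.65, and 0.22 without the 2 farthest arrays. Signals of 21.5 to 126.7 intensity units on the dim further probes of Panx1, Nt5e, Adora1 and Adora2a limit what those probes show. The Slc29a3 call at CT16 minus CT4 was also lost with quantile scaling (adjusted p = 0.0526), median scaling (0.0713), no filter on dim probes (0.0694) and without the 3 arrays highest in liver-type transcripts (0.157). The alternatives for Slc29a3, the removal of replicate means, the within-slide contrasts and the fits without the arrays highest in liver-type transcripts were chosen after seeing the data.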
